A study of Mus musculus with 6 samples.

Results

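The data are RNA-seq gene counts for complement components and a complement receptor in peritoneal macrophages. The members were the rows of the deposited gene table with the symbols C1qa, C1qb, C1qc, C1ra, C3, C4b, Cfb, Cfp and C3ar1, and all 9 were found among 48709 genes. The wild-type group held 3 libraries and the Zeb1 (+/-) group, heterozygous for the transcription factor gene Zeb1, held 3. Every library was made from a pool of 2 C57BL/6 mice, 6 to 8 weeks old, whose macrophages were washed from the peritoneal cavity, sorted as F4/80+ CD11b+ cells and left untreated. The labels give the allele as a genotype of the mouse and name no cell type to which it is limited. Since each library mixes 2 mice, the spread between libraries is not the spread between single mice.

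Complement is a cascade of blood proteins that tags microbes and dying cells for uptake. In the classical route the recognition protein C1q, built from an A, a B and a C chain, carries the proteases C1r and C1s, which cleave C4 and C2. In the alternative route factor B joins C3b, and properdin holds the resulting convertase together. Both routes cleave C3, and the fragment C3a signals through the receptor encoded by C3ar1. Most of these proteins come from the liver, but C1q and properdin are made largely by myeloid cells, and resident macrophages are a main source of C1q.

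Total counts ran from 17859872 to 42165006 per library, so 1 CPM, the unit of level used here (counts relative to each library's TMM-scaled size), stands for 17.9 to 42.3 counts. Values of single libraries are given in the order of replicates 1, 2 and 3. Zeb1 was at 5.44 to 7.56 CPM in wild-type and 3.45 to 3.85 CPM in Zeb1 (+/-) libraries, without overlap. The log2 ratio of Zeb1 (+/-) to wild-type levels was −0.89 for this gene, in the direction of the labels. Zeb1 did not pass the threshold of 0.05 (edgeR adjusted p = 0.0522), so it is not among the 76 changed genes given below. Genes of the sort were abundant, with Adgre1 (F4/80) at means of 2186 and 2618 CPM and Itgam (CD11b) at 4848 and 5061 CPM in wild-type and Zeb1 (+/-) libraries. In wild-type replicates 1 and 2, small structural RNAs summed to 4.14 and 8.69 CPM, while the other 4 libraries had 42.2 to 45.5 CPM, so this split runs partly with genotype. The summed B cell markers were at 187, 171 and 330 CPM in wild-type and 140, 126 and 108 CPM in Zeb1 (+/-) libraries. Of 15 of these markers tested, 0 passed the threshold, and their median log2 ratio was −0.96. Groups did not overlap for 12 of the 15, lower in Zeb1 (+/-), where 19.9% of all tested genes did not overlap. Of 12940 genes tested, 76 changed (0.587%), 20 higher (0.155%) and 56 lower (0.433%) in Zeb1 (+/-). There were 5 without wild-type replicate 2, 28, 11 and 127 without Zeb1 (+/-) replicates 1, 2 and 3, and 61 and 79 without wild-type replicates 1 and 3.

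Of the 9 members, 1 changed with genotype. C1ra, the protease subunit that C1q activates first, rose in Zeb1 (+/-) macrophages by 1.46-fold, from 56.9 ± 5.16 to 83.0 ± 8.75 CPM (mean ± SD, n = 3 each). The other 8, which include the 3 chains of C1q, C4, C3, factor B, properdin and the C3a receptor, had ratios of 0.921 to 0.989 between genotypes and did not pass the test. The share of all genes that changed was 0.587%. All 9 passed the filter on low counts, and their median log2 ratio was −0.022, beside −0.00038 for all tested genes. In bulk RNA, fewer cells of a type and less RNA per cell cannot be told apart.

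C1ra has a nearly identical neighbour, C1rb, so the sequences that separate them come first. C1ra (ENSMUSG00000055172.10) lies at chr6:124512405-124523443 and C1rb at chr6:124570294-124581171, both on the plus strand of GRCm38. Their coding sequences were 98.0% identical over 2118 aligned bases, and 48.0% of the 50-base stretches of the C1ra transcript also occur in C1rb. The lines below show the 90-base window of their last exon with the most differences, which counts 13. Capitals mark the bases that differ, and the windows lie at chr6:124522647-124522736 and chr6:124580693-124580782 of GRCm38.
C1ra: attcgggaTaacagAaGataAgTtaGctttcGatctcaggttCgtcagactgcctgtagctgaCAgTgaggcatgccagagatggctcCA
C1rb: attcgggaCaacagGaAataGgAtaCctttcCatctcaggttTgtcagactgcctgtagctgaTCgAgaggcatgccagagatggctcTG
C1rb had 1 count in wild-type replicate 2, 1 in Zeb1 (+/-) replicate 2 and 0 in the other 4 libraries. With so few C1rb counts, summing both genes could not move the log2 fold change of C1ra, which was 0.55 with and without the sum. Nearly all estimated C1r counts were therefore assigned to C1ra, and how the authors' tool divided shared reads was not tested.

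The level of C1ra was 58.4, 61.1 and 51.1 CPM in the wild-type libraries. It was 72.9, 87.7 and 88.4 CPM in the Zeb1 (+/-) libraries. All 3 Zeb1 (+/-) libraries were above all 3 wild-type libraries, with Zeb1 (+/-) replicate 1 the closest to them. Among all tested genes, 19.9% had groups that did not overlap, and C1ra was the 1 member of 9 that did. On the log2 scale the change of C1ra (here and below, the Zeb1 (+/-) level over the wild-type level) was 0.55 ± 0.096 (SE; 95% interval 0.33 to 0.76; edgeR adjusted p = 0.0482). Its 963 to 3712 counts per library give a counting error of 1.64% to 3.22%, well under the difference.

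The groups of C1ra did not overlap, so leaving out 1 library could not turn its direction. C1ra kept its direction in every setting tried, while the call did not hold in all. Without wild-type replicates 1, 2 or 3 in turn its log2 fold change was 0.56, 0.60 and 0.48, with edgeR adjusted p of 0.0728, 0.151 and 0.0969. Without Zeb1 (+/-) replicates 2 or 3 it was 0.51 and 0.50, with adjusted p of 0.220 and 0.0710. It passed without Zeb1 (+/-) replicate 1, at 0.63 and an adjusted p of 0.0416. With a term for the structural-RNA split, where wild-type replicate 3 alone stands against the Zeb1 (+/-) libraries, it was 0.70 (adjusted p = 0.117). With the mean of the B cell markers as a covariate it was 0.31 (adjusted p = 0.365), and the part of B cells in the difference was not tested. Mesothelial cells and fibroblasts also make C1r, and their 15 markers summed to 0.721 to 2.06 CPM in wild-type and 0.558 to 0.853 CPM in Zeb1 (+/-) libraries. These markers were near 0, and their highest sum was in wild-type replicate 2. The part of these cells in the difference was not tested.

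**Figure D1:**
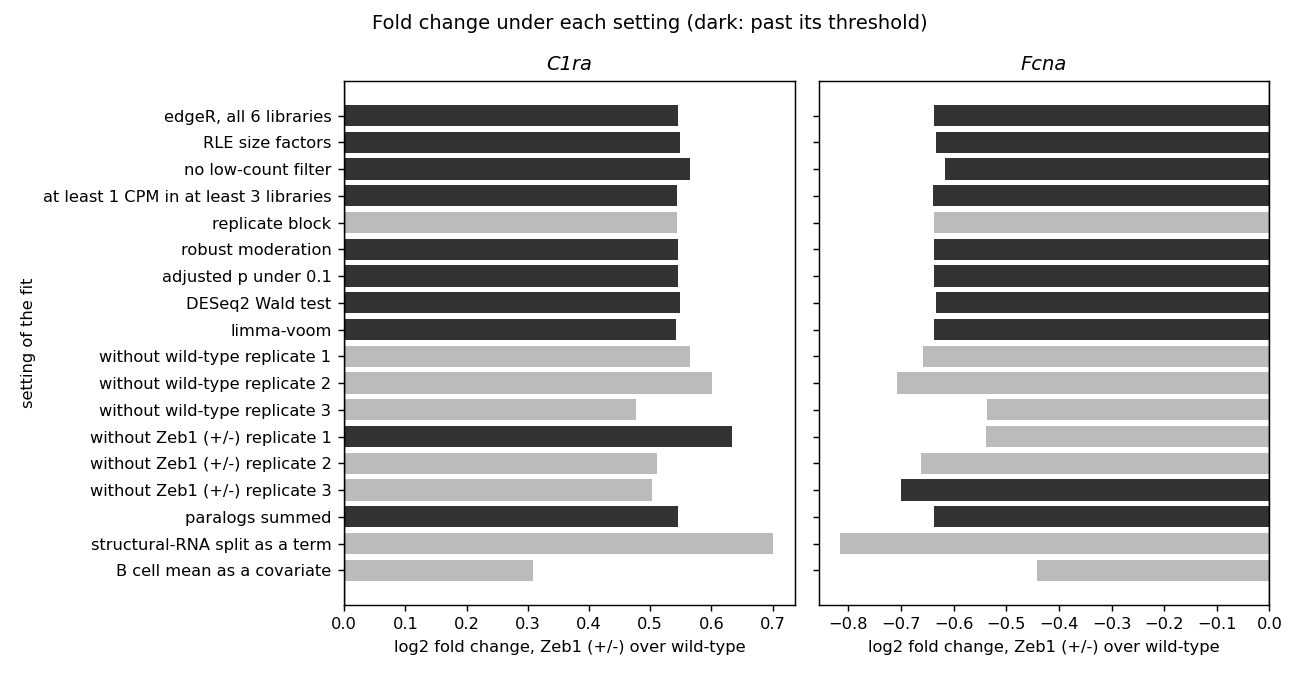
Bars give the log2 ratio of Zeb1 (+/-) to wild-type levels for C1ra and for the lectin-route gene Fcna under each setting of the fit, dark where the adjusted p passed the threshold. Every bar of C1ra is above 0 and every bar of Fcna below 0, and 8 of the 17 other settings end each call.

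The 3 chains of C1q are encoded side by side on the minus strand of chromosome 4, C1qb at 136880129 to 136886187, C1qc at 136889804 to 136893065 and C1qa at 136895917 to 136898803. C1qa, which encodes the A chain, was at 2883, 2898 and 2900 CPM in the wild-type libraries and at 2476, 2955 and 3082 CPM in the Zeb1 (+/-) libraries. The wild-type libraries lay almost on one level, while the Zeb1 (+/-) libraries spread to both sides of it. C1qb, the B chain, was at 3266, 3120 and 2983 CPM in wild-type and 2794, 3139 and 3328 CPM in Zeb1 (+/-) libraries. C1qc, the C chain, was at 3272, 3184 and 2971 CPM in wild-type and 2811, 3116 and 3393 CPM in Zeb1 (+/-) libraries. For each chain the groups overlapped, with Zeb1 (+/-) replicate 1 lowest and Zeb1 (+/-) replicate 3 highest of all 6.

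The log2 fold changes were −0.028 (95% interval −0.23 to 0.17) for C1qa, −0.017 (−0.20 to 0.17) for C1qb and −0.016 (−0.21 to 0.18) for C1qc. Their edgeR adjusted p values were 0.905, 0.942 and 0.945. These intervals span ratios of 0.854 to 1.13, so a change of the size seen for C1ra lies outside them. Within each library the ratio of C1qc to C1qb counts stayed between 0.993 and 1.02. The ratio of C1qa to C1qb counts ranged more widely, from 0.883 in wild-type replicate 1 to 0.972 in wild-type replicate 3.

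**Figure D2:**
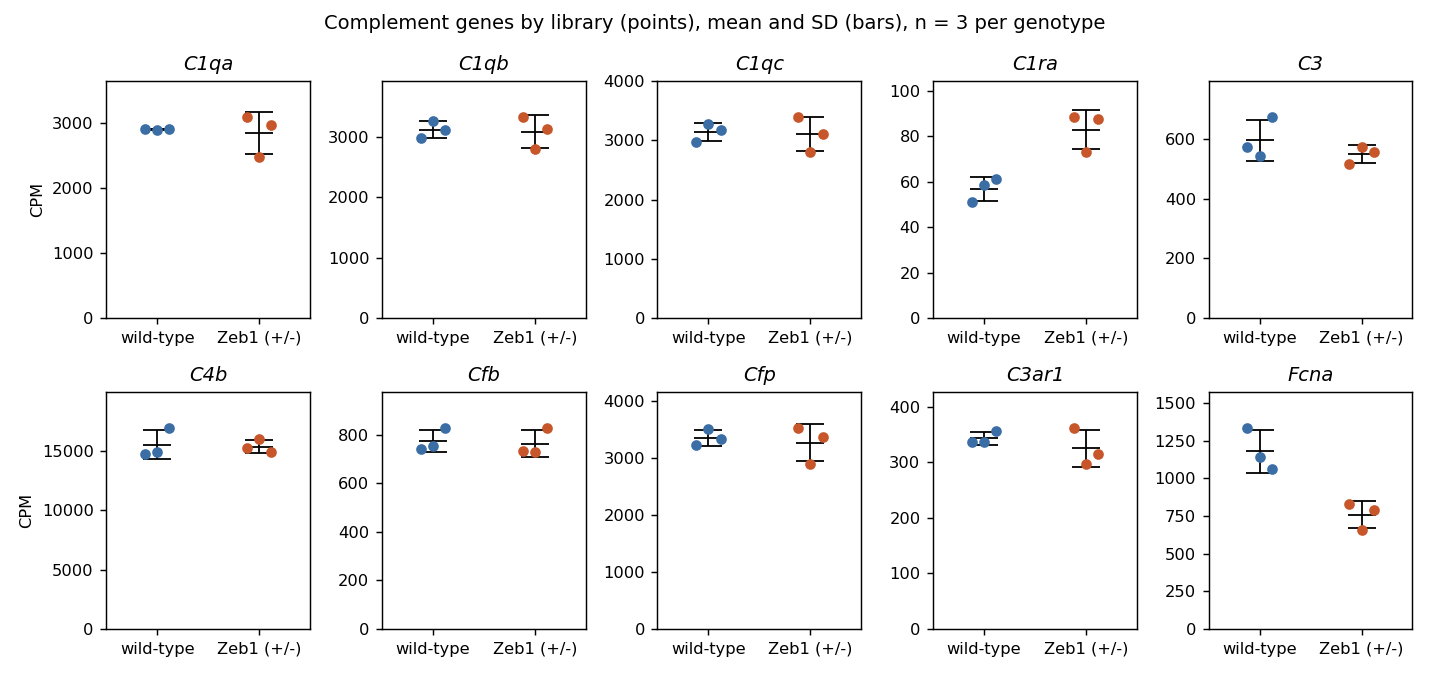
Each panel plots CPM for a complement gene by genotype, with a point per library and the mean and SD over 3 libraries as bars. C1ra is the member whose groups do not overlap, at 51.1 to 61.1 CPM against 72.9 to 88.4 CPM, and Fcna, not a member, is shown beside it.

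C4b encodes complement C4, the first substrate of the C1 proteases, and lies at chr17:34728380-34743882 on the minus strand. It was the member with the most counts, 1.49% to 1.70% of all counts of a library. Its level was 14923, 16941 and 14755 CPM in the wild-type libraries and 15979, 14884 and 15235 CPM in the Zeb1 (+/-) libraries. The groups overlapped, with wild-type replicate 2 highest. For C4b the log2 fold change was −0.016 (95% interval −0.20 to 0.17; edgeR adjusted p = 0.943). The related gene C4a shares 34.6% of the 50-base stretches of C4b and had 58 to 146 counts per library against 277800 to 630105 for C4b.

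C3 encodes the central component on which all routes meet, and lies at chr17:57203970-57228136 on the minus strand. It was at 542, 673 and 573 CPM in the wild-type libraries and at 574, 556 and 516 CPM in the Zeb1 (+/-) libraries. Wild-type replicate 2 stood above the other 5 libraries, which overlapped. The log2 fold change of −0.12 (95% interval −0.32 to 0.085; edgeR adjusted p = 0.575) was −0.022 without that library.

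The alternative-route members are Cfb, which encodes the protease factor B, and Cfp, which encodes properdin. Cfb (chr17:34856374-34862518, minus strand) was at 754, 827 and 744 CPM in wild-type and at 730.3, 829 and 731 CPM in the Zeb1 (+/-) libraries. Replicate 2 of each genotype was the highest of its group, and the groups overlapped. The log2 fold change was −0.022 (95% interval −0.20 to 0.15; edgeR adjusted p = 0.919). Of the stretches of Cfb 73.0% also occur in Gm20547, a gene model that spans Cfb and C2, to which 0 to 42 counts were assigned against 13080 to 35079 for Cfb. Cfp (chrX:20925454-20931555, minus strand) was at 3501, 3337 and 3216 CPM in wild-type and at 2896, 3361 and 3523 CPM in Zeb1 (+/-) libraries. Zeb1 (+/-) replicate 1 was again lowest and Zeb1 (+/-) replicate 3 highest. The log2 fold change of Cfp was −0.040 (95% interval −0.23 to 0.16; edgeR adjusted p = 0.862). Neutrophils also make properdin, and their 11 markers summed to 1.92 to 3.92 CPM over the 6 libraries. Single markers ranged from 0 for Mpo to means of 1.26 and 1.27 CPM for S100a8 in wild-type and Zeb1 (+/-) libraries. The part of neutrophils in the level of Cfp was not tested.

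C3ar1 encodes the G protein-coupled receptor for C3a and lies at chr6:122847138-122856161 on the minus strand. It was at 336, 357 and 336 CPM in wild-type and at 297, 316 and 362 CPM in the Zeb1 (+/-) libraries. The groups overlapped, with the lowest and the highest value both among the Zeb1 (+/-) libraries. For C3ar1 the log2 fold change was −0.078 (95% interval −0.26 to 0.11; edgeR adjusted p = 0.701).

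**Figure D3:**
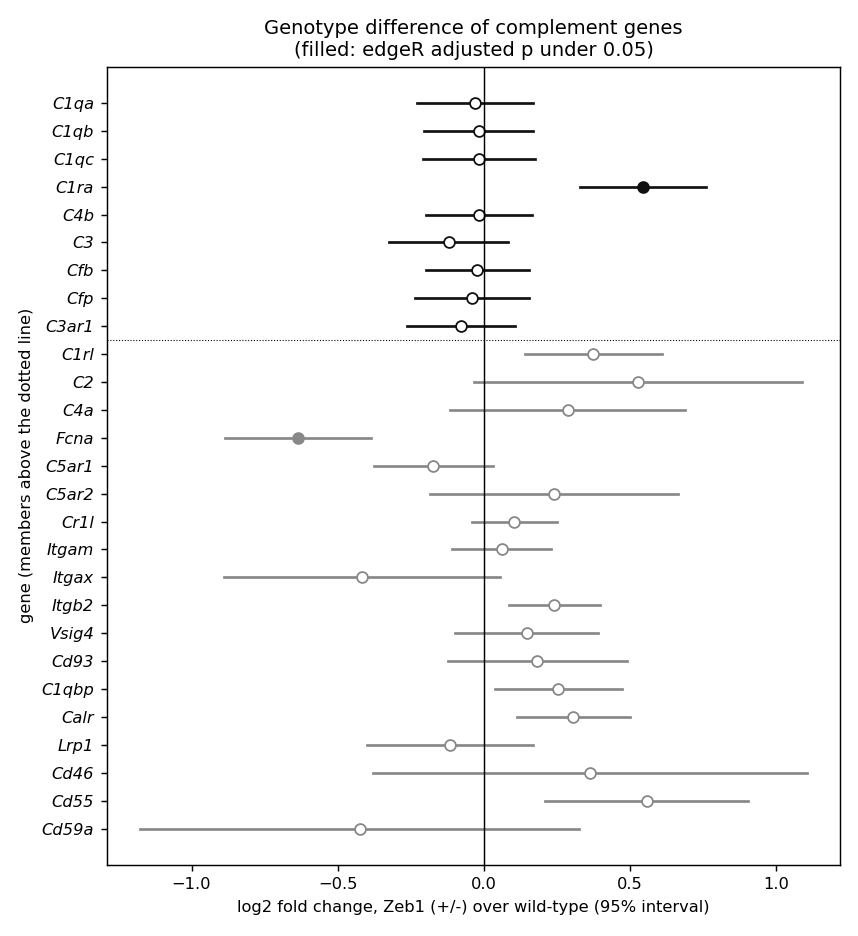
Points give the log2 ratio of Zeb1 (+/-) to wild-type levels, with its 95% interval, for the members, in black, and for 18 of the 20 other tested complement genes, in grey, with C8g among those not drawn. C1ra at 0.55 and Fcna at −0.64 are filled because they passed the adjusted threshold, and the intervals of the other 8 members include 0.

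Levels of different genes were compared per kilobase of merged exons. C1qb (2568 to 3059 CPM per kb over the 6 libraries), C4b (2591 to 2975) and C1qa (2381 to 2963) overlapped at the top. They ranked 12, 14 and 13 of 12911 tested genes with a length. Cfp followed at 1668 to 2030 CPM per kb and overlapped C1qc at 1456 to 1757 CPM per kb. C1qc has another annotated transcript with a different last exon, and with the length of the longest transcript its mean was 2597 instead of 1618 CPM per kb. Below them stood Cfb (258.5 to 293 CPM per kb), C3 (100.3 to 131), C3ar1 (69.1 to 84.1) and C1ra (17.2 to 29.7), none of which overlapped its neighbour in this order per merged exon length. With the median transcript length the order changed, with C4b alone at the top (20253 CPM per kb) and C3 (941) above Cfb (457). C1ra was the lowest member with all 3 lengths, with a mean of 23.5 CPM per kb, against 2854 for C1qb.

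**Figure D4:**
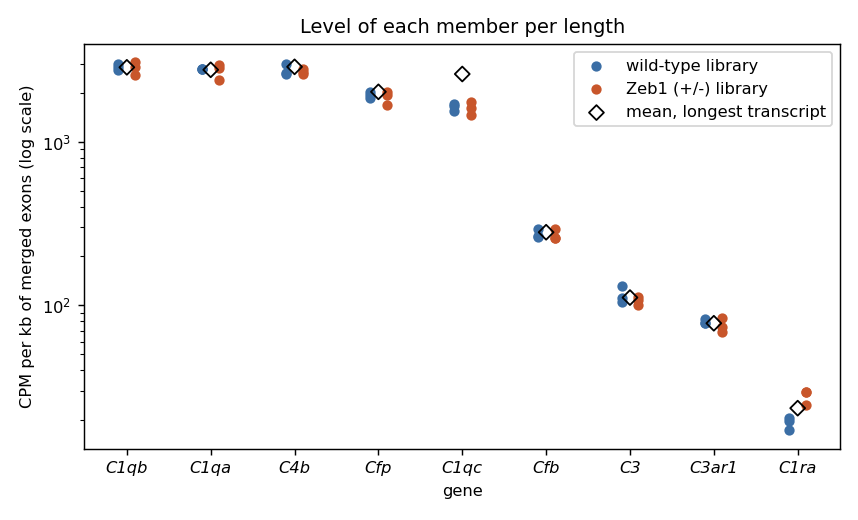
Points give CPM per kilobase of merged exons, on a log axis, for each member in each library, and diamonds the mean with the length of the longest transcript. C1qb, C1qa and C4b lie together, with means of 2713 to 2854 CPM per kb, C1ra lies lowest at 17.2 to 29.7, and C1qc is the member whose level moves most with the length used here.

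Across the 6 libraries the members fell into patterns that did not follow genotype, apart from C1ra. Each gene's log2 CPM was centred on its mean, and likeness was the root mean square difference over the 6 libraries, in log2 units. C1qb and C1qc differed by 0.015 and C1qb and Cfp by 0.019. Genes outside complement came about as close, with Tnfaip1 at 0.020 from Cfp. C1qa, C1qb, C1qc, Cfp and C3ar1 shared the lowest library, Zeb1 (+/-) replicate 1, with deviations of −0.15 to −0.21, and the highest, Zeb1 (+/-) replicate 3, with 0.095 to 0.12. Zeb1 (+/-) replicate 1 was also the library with the fewest counts, 17859872. Wild-type replicate 3, with 18574049 counts, had deviations of −0.070 to 0.020 in the same genes. A link with depth was not tested. C3 and C4b were highest in wild-type replicate 2 and differed from each other by 0.076. C1ra differed from every other member by 0.29 to 0.36.

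**Figure D5:**
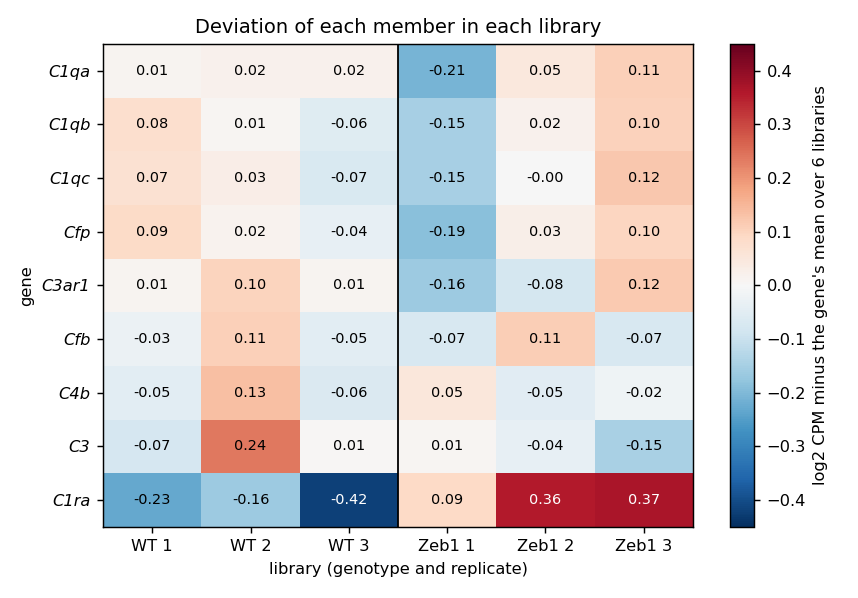
Cells give log2 CPM minus the gene's mean over the 6 libraries, with libraries as columns (wild-type left of the line) and members as rows. The C1q chains, Cfp and C3ar1 share a low in Zeb1 (+/-) replicate 1 (−0.15 to −0.21), and C1ra alone separates the genotypes.

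Of 8319 other tested genes with a mean of at least 10 CPM, Tnfaip1, Rnasek and Umad1 were the most like the mean of the C1q chains, at differences of 0.021, 0.026 and 0.026 log2 units. The C1q mean itself varied by 0.087 about its average. For C1ra the closest genes were Cuedc1, Pdia5 and Lair1, at 0.054, 0.077 and 0.083, with a variation of 0.30 in C1ra itself. For C3 they were Ttbk2, Map4k2 and Ankrd44, at 0.031, 0.032 and 0.034, with a variation of 0.12 in C3.

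Of 49 symbols of other complement genes listed by role, 47 were in the table and 20 were abundant enough to test. The listed symbols C5 and Daf2 are second names of Hc and Cd55b, which were in the table. Fcna fell, 0 rose and 19 did not pass, against 0.587% of all genes called. Groups did not overlap for 5 higher and 1 lower of the 20, where 19.9% of all tested genes did not overlap. The median log2 fold change of these 20 genes was 0.21.

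Fcna encodes ficolin A, a secreted lectin of macrophages that starts the lectin route on microbial sugars. It was at 1143, 1058 and 1334 CPM in the wild-type libraries and at 657, 790 and 827 CPM in the Zeb1 (+/-) libraries. All Zeb1 (+/-) libraries were below all wild-type libraries. The mean fell from 1178 ± 141 to 758 ± 89.5 CPM (SD, n = 3 each), a ratio of 0.643. The log2 fold change was −0.64 ± 0.11 (SE; 95% interval −0.89 to −0.39; edgeR adjusted p = 0.0482). Without wild-type replicates 1, 2 or 3 it was −0.66, −0.71 and −0.54, with adjusted p of 0.0659, 0.111 and 0.0868. Without Zeb1 (+/-) replicates 1 or 2 it was −0.54 and −0.66, with adjusted p of 0.0985 and 0.183, and it passed without Zeb1 (+/-) replicate 3, at −0.70 (adjusted p = 0.0446). With a term for the structural-RNA split it was −0.82 (adjusted p = 0.0612) and −0.44 (adjusted p = 0.333) when the B cell mean was a covariate.

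Markers of monocytes and small peritoneal macrophages, the minor macrophages of the cavity, were in part lower beside Fcna. Of 10 tested, 5 fell (Ccr2, Mrc1, Folr2, Fcrls and Retnla) and 0 rose, where 0.433% of all tested genes fell. Their median log2 fold change was −0.62, while Fn1 (0.074) and Clec10a (0.14) lay above 0. Fn1 was at means of 41719 and 43921 CPM in wild-type and Zeb1 (+/-) libraries, near the core macrophage marker Lyz2 (42422 and 42763 CPM). At that level Fn1 cannot be read as a marker of minor cells here. A sum without Fn1 leaves out a listed gene that did not fall. The 10 others in the table summed to 2022 to 2137 CPM in wild-type and 1302 to 1429 CPM in Zeb1 (+/-) libraries. Retnla was the largest part of these sums, at means of 1136 and 744 CPM. With Fn1 the sums overlapped, at 41394 to 47734 CPM in wild-type and 43823 to 47274 CPM in Zeb1 (+/-) libraries. Of 13 tested markers of large peritoneal macrophages, the resident majority, 0 changed and the median was 0.16. Groups did not overlap for 5 higher and 1 lower of the 13, where 19.9% of all tested genes did not overlap. The part of these cells in the lower Fcna was not tested.

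The other initiators were scarce. C1rl, a C1r-like gene at chr6:124493113-124510643 just upstream of C1ra, was at 16.4, 18.5 and 19.5 CPM in wild-type and 25.1, 24.9 and 20.4 CPM in Zeb1 (+/-) libraries. Its groups did not overlap, but the log2 fold change of 0.38 did not pass (edgeR adjusted p = 0.158). C1s1, the protease that C1r activates, had 2 to 16 counts per library, and C1s2 had 0 to 4. C2, the substrate that pairs with C4, was at means of 2.17 and 3.09 CPM in wild-type and Zeb1 (+/-) libraries. Of the stretches of C2 38.7% also occur in Gm20547, with 0 to 42 counts per library against 35 to 168 for C2. How reads shared by C2 and Gm20547 were divided was not tested. Masp1, Mbl2 and Colec10 of the lectin route had 0 counts in all 6 libraries, which allows up to 0.0709 to 0.167 CPM per library (3 counts, counting error only).

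The later steps of the cascade were close to absent from the RNA. The 7 terminal-component genes in the table summed to 0.451 to 0.903 CPM per library, and C9 had 0 counts. C8g, the only one tested, had a log2 fold change of 0.28 (95% interval −0.71 to 1.27; edgeR adjusted p = 0.805). Cfd, the protease that cleaves factor B, had 1 count in 1 library.

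Among receptors, 11 of 12 were tested and 0 changed. Calr, which encodes calreticulin, a binding partner of C1q, had the smallest p. Its level was 1211, 973 and 1041 CPM in wild-type and 1335, 1316 and 1341 CPM in Zeb1 (+/-) libraries, groups that did not overlap, with a log2 fold change of 0.31 (edgeR adjusted p = 0.159). Itgb2, the β chain of complement receptors 3 and 4, was at means of 2557 and 3025 CPM, also without overlap (0.24, edgeR adjusted p = 0.165). C5ar1, the main C5a receptor, was at 155 and 138 CPM (−0.17, edgeR adjusted p = 0.419), and Vsig4, the C3b receptor of resident macrophages, at 431 and 477 CPM (0.15, edgeR adjusted p = 0.561). Cr2 was not tested at 0.178 to 0.531 CPM.

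Among regulators, 4 of 13 in the table were tested and 0 changed. Cd55, which dissolves convertases on the cell surface, was at 6.85, 6.85 and 9.88 CPM in wild-type and 10.1, 12.2 and 11.8 CPM in Zeb1 (+/-) libraries. Its log2 fold change of 0.56 did not pass (edgeR adjusted p = 0.158), although it passed without wild-type replicate 3 at 0.74 (adjusted p = 0.0475). Cfi, Cd55b, C4bp, Csmd1 and Susd4 had 0 counts in all 6 libraries.

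ZEB1 binds E-boxes, so the 250 bases before each RefSeq start were searched for CACCTG on both strands, read as CACCTG or CAGGTG. RefSeq entries on GRCm38.p6 were given for 6 members, C1qb, C1qc, C1ra, C3, Cfp and C3ar1, and 1 of the 6 held a match. It was C1qb, whose level did not pass the genotype test, with a match that begins 135 bases before the start. Of all 32851 entries 17.2% held one. The stretch of C1qb is shown because it holds the only match, and that of Fcna because its RNA fell and its window holds none. Both are on the minus strand, at chr4:136886201-136886450 and chr2:25628031-25628224, and capitals mark the E-box. Bases within annotated transcripts are left out.
C1qb: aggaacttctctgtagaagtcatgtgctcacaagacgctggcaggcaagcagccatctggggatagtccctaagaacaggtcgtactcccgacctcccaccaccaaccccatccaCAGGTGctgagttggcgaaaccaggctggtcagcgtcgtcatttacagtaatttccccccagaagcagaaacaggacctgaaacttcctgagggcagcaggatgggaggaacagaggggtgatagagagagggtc
Fcna: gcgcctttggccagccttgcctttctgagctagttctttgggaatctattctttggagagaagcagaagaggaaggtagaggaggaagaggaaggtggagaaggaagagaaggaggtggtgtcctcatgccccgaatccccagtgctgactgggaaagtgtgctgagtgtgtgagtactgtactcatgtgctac
A match is a description of these letters and not of binding, and the window covers no distal sites.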

How the data were processed

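The cells were lysed in RNAzol, and a TruSeq stranded kit for mRNA gave the libraries, per the labels' protocols. The authors deposited estimated counts per gene, as whole numbers. STAR, RSEM and edgeR are named without versions or roles, with the build GRCm38, per the submitters' processing notes. The annotation release and strand setting are not given in the sources used here. Columns were mapped to samples by the identifier in each description.

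Genotype was tested in R 4.3.3 with the quasi-likelihood test of edgeR 4.0.16 on all genes kept by filterByExpr (minimum count 10), with TMM scaling and Benjamini-Hochberg adjustment over 12940 genes at 0.05. Nothing in the labels states that libraries came from separate cages or days, and p-values measure the spread between these pooled libraries. SE is the size of the log2 fold change over the square root of F. Positions and lengths come from the GENCODE annotation on GRCm38, in which 99.3% of gene identifiers matched without version. Alternatives used DESeq2 1.42.0 and limma 3.58.1. The model was tested on simulated data.

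The members and lists were chosen with earlier results of these data known. Named are the members, near-identical paralogs, Zeb1, the called or smallest-p gene of each complement role with examples, and the 3 genes most like C1q, C1ra and C3. Marker lists cover B cells, mesothelium and fibroblasts, neutrophils, monocytes and small peritoneal macrophages, and large peritoneal macrophages. Cr2 is also a listed complement receptor, as are Itgam and Vsig4 of the large macrophage list. Those of T and NK cells, eosinophils and mast cells, dendritic cells and core macrophages had 0 of 1, 6, 5 and 10 tested genes changed. The structural-RNA and B cell terms and the longest-transcript length were added after the data were seen. One listed regulator is counted but not reported here.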

Additional observations from a re-analysis of the deposited data

How the results depend on the processing

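Of the 9 members 1 passed in the fit reported. With 1 library left out 0 to 1 passed, and 0 passed with the replicate block, with the structural-RNA split and with the B cell covariate, each with 1 member at an unadjusted p under 0.05. Of the other complement genes 1 passed in the fit reported, 0 to 1 with 1 library left out, and 0 with the replicate block, the split and the covariate (6, 4 and 4 at an unadjusted p under 0.05). DESeq2 called 4 (Fcna, Calr, Itgb2 and Cd55) and no low-count filter 4 (Fcna, Calr, C1rl and Cd55). Of all tested genes 76 passed. There were 5 to 127 with 1 library left out, 15 with the replicate block, 214 at an adjusted p under 0.1, 351 by DESeq2, 522 without the filter, 31 with the split and 3 with the covariate.

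Deviations of same-numbered libraries of the genotypes had correlations of −0.25, −0.035 and −0.17, and those of different-numbered libraries −0.086 to 0.27. Each deviation is from a mean of 3 libraries, so these values cannot decide whether the numbers pair the samples. With the replicate block the log2 fold change of C1ra was 0.54 (adjusted p = 0.174) and Fcna −0.64 (adjusted p = 0.113). Signs near 0 changed. Without the filter C1qb, C1qc and C4b were at 0.0016, 0.0019 and 0.00086. With the split C1qb, C1qc, C4b, Cfb and Cfp were at 0.050, 0.064, 0.059, 0.038 and 0.020, and C8g at −0.27. With 1 library left out C1qa ran from −0.088 to 0.067, C1qb from −0.071 to 0.056, C1qc from −0.081 to 0.056, C4b from −0.051 to 0.051, Cfb from −0.079 to 0.029, Cfp from −0.096 to 0.044 and C8g from −0.028 to 0.58. C3 and C3ar1 stayed below 0 and not past the threshold in all 17 other settings.

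With the median transcript length the levels per kilobase were 2908 CPM for C1qc, 941 for C3, 20253 for C4b, 457 for Cfb and 3246 for Cfp. With the longest transcript they were 2597 for C1qc and 2873 for C4b. Several genes have short annotated fragments, which lower the median length. Depth limits the precision of low genes: C8g, with 9 to 27 counts per library, had a counting error of 19.2% to 33.3%.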
